A study of Rattus norvegicus with 7 samples.

Results

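The mir-23, mir-27 and mir-24 microRNAs (miRNAs) of the rat are encoded in 2 genomic clusters, mir-23a/27a/24-2 on chromosome 19 and mir-23b/27b/24-1 on chromosome 17. Their loci were taken from the deposited values of the retina as every feature annotated as miRNA whose gene symbol was mir-23, mir-27 or mir-24 with any letter or locus number. This rule found 5 of the 571 miRNA features, namely Mir23a, Mir27a and Mir24-2 of the first cluster and Mir23b and Mir27b of the second, in a list of 5491 features. Mir24-1 was not analysed here.

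Small RNA libraries from the retina of Wistar WU rats were run on the Ion Torrent PGM for 7 postnatal days, namely P1, P3, P5 and P7 in the first week and P10, P15 and P21 later. The animals received no treatment, and the age was the only difference between the groups that the labels give. The make-up of the libraries also differed between ages, as described below, and cannot be told apart from age. Each age was represented by the pooled RNA of 3 retinas and by 1 value per feature, so the spread between animals is unknown and no test between ages was possible. Values are FPKM, the mapped fragments of a feature scaled to its length and to the size of the library, as the authors' software gave them.

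MiRNAs are short RNAs that pair with messenger RNAs, mainly through the seed near their 5′ end, and lower the translation and stability of these messengers. The miRNAs miR-23 and miR-27 are abundant in endothelial cells and are known to favour the sprouting of vessels by repressing inhibitors of this process, among them Sprouty2 and Sema6a. MiR-24 is known to repress genes of the apoptotic pathway, and in the developing retina of the frog it supports the survival of neural cells. Retinal vessels of rodents spread over the inner surface of the retina after birth and then form deeper layers.

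All 5 loci had a hairpin and at least 1 mature sequence in the RefSeq table of the GRCr8 assembly. The mature sequences of the 3′ arms are shown because they define the families and set how far reads of the loci can be told apart. They are written 5′ to 3′ with the seed, bases 2 to 8, in capitals.
rno-miR-23a-3p (Mir23a): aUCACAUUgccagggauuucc
rno-miR-23b-3p (Mir23b): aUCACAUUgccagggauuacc
rno-miR-27a-3p (Mir27a): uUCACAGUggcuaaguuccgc
rno-miR-27b-3p (Mir27b): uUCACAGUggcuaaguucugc
rno-miR-24-3p (Mir24-2 and Mir24-1): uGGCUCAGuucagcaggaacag
Mir23a and Mir23b shared the seed UCACAUU, Mir27a and Mir27b the seed UCACAGU, and miR-24-3p had the seed GGCUCAG. Counted from 1 at the 5′ end of the first miRNA of a pair, the 3′ arms of Mir23a and Mir23b differed by the substitution U19A, and those of Mir27a and Mir27b by C19U. The other 20 of 21 bases were the same in both pairs. The miR-24-3p sequence of Mir24-2 and Mir24-1 was the same at all 22 bases. Reads of 1 family can therefore fit more than 1 locus, and how the authors' mapping counted such reads is not given in the sources used here. How a family's reads fall on its single loci is therefore uncertain. Of the 724 mature sequences in the table, those of Mir24-1 were the only others with a seed of any mature sequence of the 5 loci.

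The 5′ arms of the hairpins differed more. Those of the other 4 loci than Mir23a are shown with the seed again in capitals.
rno-miR-23b-5p (Mir23b): gGGUUCCUggcaugcugauuu
rno-miR-27a-5p (Mir27a): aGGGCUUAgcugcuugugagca
rno-miR-27b-5p (Mir27b): aGAGCUUAgcugauuggugaacag
rno-miR-24-2-5p (Mir24-2): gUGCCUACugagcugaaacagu
The seeds of the 5′ arms of Mir27a and Mir27b were different, GGGCUUA and GAGCUUA. The deposited values do not separate the arms, since each feature spans most of a hairpin and all listed arms of the 5 loci lay within the part covered by reads.

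In the genome build Rnor_6.0, the loci of the first cluster lie on the forward strand of chromosome 19. Mir23a (ENSRNOG00000035644.1) spans 25318582 to 25318656, Mir27a (ENSRNOG00000035597.1) 25318736 to 25318822 and Mir24-2 (ENSRNOG00000035501.1) 25318863 to 25318970. The 3 hairpins thus fit into 389 bases, with 79 bases between the hairpins of Mir23a and Mir27a and 40 between those of Mir27a and Mir24-2. On chromosome 17, also on the forward strand, Mir23b (ENSRNOG00000035467.1) spans 823222 to 823318 and Mir27b (ENSRNOG00000035576.1) 823461 to 823557, with 142 bases between them. In the RefSeq gene list of GRCr8, the loci on chromosome 17 lie within Aopep, a gene for an aminopeptidase, and those on chromosome 19 lie in no other gene, between Zswim4 and the noncoding RNA LOC102548759. The position relative to the exons of Aopep was not analysed here.

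The depth behind these values was read from the steps between low FPKM values, since for features of 1 length every low value is a whole number of equal portions, each from 1 alignment. At P1 a single step explained 99.6% of the low values. At the 5 ages from P3 to P15 the values were sums of 2 steps and at P21 of 4 steps, here called components of the library, and between 99.8% and 100% of the low values fell on such sums. Each pool was put through sequencing 2 times, but the number of components differed between ages, and they were not assigned to sequencing runs or library preparations. Assuming equal signal from each component, the libraries of P1 and P3 held 296698 and 496755 alignments. Those of P5 and P7 held 413169 and 593365, those of P10 and P15 held 453119 and 449914, and that of P21 held 1358209. Under this assumption P21 was the deepest library and P1 the shallowest, so levels at P21 have the smallest counting error. Without it, the alignments were only known to lie between 447127 and 1784290 at P21. They lay between 127171 and 772657 at P15 and between 199962 and 706276 at P10, so P1 was not fixed as the shallowest library. The 5 loci took between 0.418% of the miRNA alignments at P10 and 0.673% at P21.

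For the locus with the fewest alignments at P1, Mir27a, 113 alignments stood behind the value, and for the locus with the most, Mir23b, 360. At P21 the effective numbers were 528 and 1793. Intervals given below are 95% intervals from these numbers. They cover counting error only, leave out variation between animals, and treat copies made by PCR as independent molecules. Differences are on the log2(FPKM + 1) scale unless stated. All values come from whole retinas, in which fewer cells of a type and less RNA per cell cannot be told apart.

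The level of Mir23a, whose 3′ arm belongs to the vessel-related mir-23 family, was 23181 FPKM at P1, 27184 FPKM at P3, 35521 FPKM at P5, 28507 FPKM at P7, 25253 FPKM at P10, 39567 FPKM at P15 and 82062 FPKM at P21. P21 was higher than every other age, and 4 of the 6 steps between neighbours in the order of levels were within the counting interval. P21 exceeded the next level, that of P15, by 1.05 (interval from 0.77 to 1.34). Of the 5 loci, only Mir23a was at least 2-fold higher at P21 than at P15, beside 32.4% of all miRNA features. This was less than 2-fold under the other scalings, at 0.57 with libraries scaled to the miRNA total, 0.81 with median-of-ratios scaling and 0.70 with TMM-like scaling. The other step beyond counting error was that between P7 and P5, with P7 lower by a difference of -0.32 (from -0.58 to -0.056), but its sign turned with median-of-ratios scaling (0.066) and TMM-like scaling (0.13).

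Mir23b, the paralog on chromosome 17, had 25443 FPKM at P1, 32685 FPKM at P3, 31820 FPKM at P5, 38775 FPKM at P7, 33257 FPKM at P10, 42977 FPKM at P15 and 63180 FPKM at P21. The lowest level was again that of P1 and the highest that of P21, with a flatter course between them. P1 was below the next level by 0.32 (from 0.12 to 0.53), and P21 was above P15 by 0.56 (from 0.39 to 0.72). The latter was 0.073 with libraries scaled to the miRNA total, 0.32 with median-of-ratios and 0.20 with TMM-like scaling, all outside the counting interval. The levels of P3, P5 and P10 did not differ beyond the counting interval from their neighbours among these 3 ages.

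For Mir27a, of the other vessel-related family, the values were 11692 FPKM at P1, 14461 FPKM at P3, 17059 FPKM at P5, 9227 FPKM at P7, 15259 FPKM at P10, 17483 FPKM at P15 and 27230 FPKM at P21. P7 was the lowest and P21 the highest age. The fall from P5 to P7 was the largest change between neighbouring ages of this locus, with a difference of -0.89 (from -1.21 to -0.56), followed by a difference of 0.73 (from 0.35 to 1.10) from P7 to P10. This rise was 0.32 with libraries scaled to the miRNA total, 0.47 with median-of-ratios scaling, 0.29 with TMM-like scaling and 0.083 as a share of the estimated miRNA alignments. With median-of-ratios scaling the fall was -0.50, and with TMM-like scaling it was -0.44 and smaller than the rise from P10 to P15 (0.64). In the order of levels as deposited, only the step from P15 to P21, 0.64 (from 0.30 to 0.98), was beyond counting error. It was 0.16 with libraries scaled to the miRNA total, 0.40 with median-of-ratios and 0.29 with TMM-like scaling.

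Mir27b had 13037 FPKM at P1, 23401 FPKM at P3, 12620 FPKM at P5, 15636 FPKM at P7, 39167 FPKM at P10, 37225 FPKM at P15 and 36622 FPKM at P21. Its levels formed a low group at P1, P5 and P7 and a high group at P10, P15 and P21, with P3 between them. Within each of these groups, neighbouring levels did not differ beyond the counting interval. This held for FPKM as deposited. With scaling P21 was below P15, by a difference of -0.51 (miRNA total), -0.26 (median-of-ratios) or -0.37 (TMM-like). P21 was then also below P3 with libraries scaled to the miRNA total (-0.22) and as a share of the estimated miRNA alignments (-0.15), so P3 was not apart from the high group under every scaling. In the low group P7 was above P5 by 0.31 as deposited, within counting error, but by 0.69 with median-of-ratios scaling, 0.76 with TMM-like scaling and 0.63 as a share of the alignments. The difference between P10 and P7 was 1.33 (from 1.08 to 1.57), a 2.50-fold higher level at P10. Mir27b was the only one of the 5 loci that was at least 2-fold higher at P10 than at P7, and 25.9% of all miRNA features were, so such a rise was common among the miRNAs. This share was 16.1% with libraries scaled to the miRNA total, 20.1% with median-of-ratios and 15.1% with TMM-like scaling. The rise of Mir27b was 1.07 with median-of-ratios scaling, still at least 2-fold. It was 0.92 with each library scaled to its miRNA total, 0.89 with TMM-like scaling and 0.68 as a share of the alignments, these 3 less than 2-fold.

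Mir24-2, the member that encodes the survival-related miR-24-3p, had 8913 FPKM at P1, 10261 FPKM at P3, 15312 FPKM at P5, 9350 FPKM at P7, 9752 FPKM at P10, 13993 FPKM at P15 and 27643 FPKM at P21. P21 stood highest, P5 and P15 were intermediate, and P1, P3, P7 and P10 were low. Neighbours in order among these 4 low levels did not differ beyond the counting interval. The gap between P3 and P15 was 0.45 (from 0.074 to 0.82), and that between P5 and P21 was 0.85 (from 0.63 to 1.07). These were 0.064 and 0.27 with libraries scaled to the miRNA total, and the first was 0.72 with median-of-ratios and 0.93 with TMM-like scaling, so P15 was not set apart from P3 under every scaling. From P5 to P7 the difference was -0.71 (from -0.99 to -0.44), a fall of the same direction as that of Mir27a in its own cluster. It was -0.33 with median-of-ratios and -0.26 with TMM-like scaling.

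**Figure D1:**
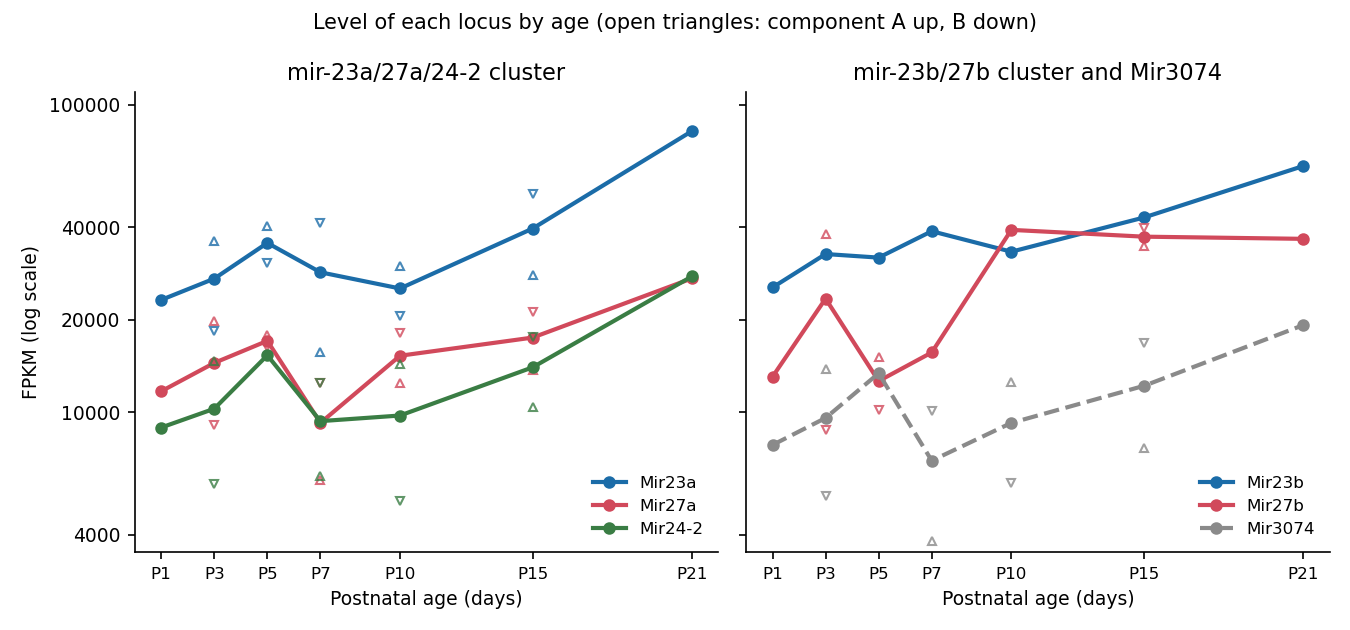
FPKM (log scale) of the loci of each cluster against postnatal age, with filled points for the deposited values and open triangles for the levels in component A (pointing up) and component B (pointing down) where both could be recovered. Mir23a, Mir27a and Mir24-2 were highest at P21, with 82062, 27230 and 27643 FPKM, while Mir27b reached 39167 FPKM at P10 and stayed near this level.

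Against P1, P21 was higher for all 5 loci. The difference between P21 and P1 was 1.82 (from 1.57 to 2.08) for Mir23a and 1.31 (from 1.15 to 1.48) for Mir23b. It was 1.22 (from 0.93 to 1.51) for Mir27a and 1.49 (from 1.22 to 1.76) for Mir27b. For Mir24-2 it was 1.63 (from 1.37 to 1.90). All 5 loci were thus at least 2-fold higher at P21, none was at least 2-fold lower, and 31.5% of all miRNA features were at least 2-fold higher and 32.9% at least 2-fold lower. The median over the 5 loci was 1.49, compared with -0.049 over the 571 miRNA features. Ranked by this difference, the 5 loci took places from 116 for Mir23a to 168 for Mir27a among the 571 features.

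The size of this rise depended on the scaling between libraries. The total FPKM of the miRNA features was higher at P21 than at P1, and scaling to this total raised all values of P1 against P21 by 0.63. With this scaling the difference was 1.20 for Mir23a, 1.01 for Mir24-2, 0.87 for Mir27b, 0.69 for Mir23b and 0.60 for Mir27a, so 2 of the 5 loci were at least 2-fold higher, beside 23.6% of all miRNA features, with 43.6% at least 2-fold lower. The median over all miRNA features was then -0.67. Median-of-ratios and TMM-like scaling shifted P1 by -0.077 and -0.14, and all 5 loci were at least 2-fold higher, beside 32.9% and 34.2% of all miRNA features. Taken as a share of the estimated miRNA alignments, a scale chosen after seeing the data, the differences were between 0.22 for Mir27a and 0.82 for Mir23a, and none of the 5 loci reached 2-fold, beside 18.4% of all miRNA features, with 50.4% at least 2-fold lower. The difference was above 0 for all 5 loci under each of these scalings.

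As deposited, P21 was the highest age of 4 of the 5 loci and of 29.8% of all miRNA features, and P1 was the lowest of 3 loci and of 20.8% of all. These ages depended on the scaling for some loci. P21 was the highest age of Mir23a, Mir27a and Mir24-2 under each of the 4 scalings. For Mir23b it was P21 except as a share of the estimated miRNA alignments, where P7 was highest. The highest age of Mir27b was P15 instead of P10 with libraries scaled to the miRNA total and with median-of-ratios and TMM-like scaling, and stayed P10 as a share of the alignments. The lowest age was P10 instead of P1 for Mir23a and Mir24-2 with libraries scaled to the miRNA total and as a share of the alignments, P10 instead of P1 for Mir23b in the latter case, and P1 instead of P7 for Mir27a with TMM-like scaling.

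**Figure D2:**
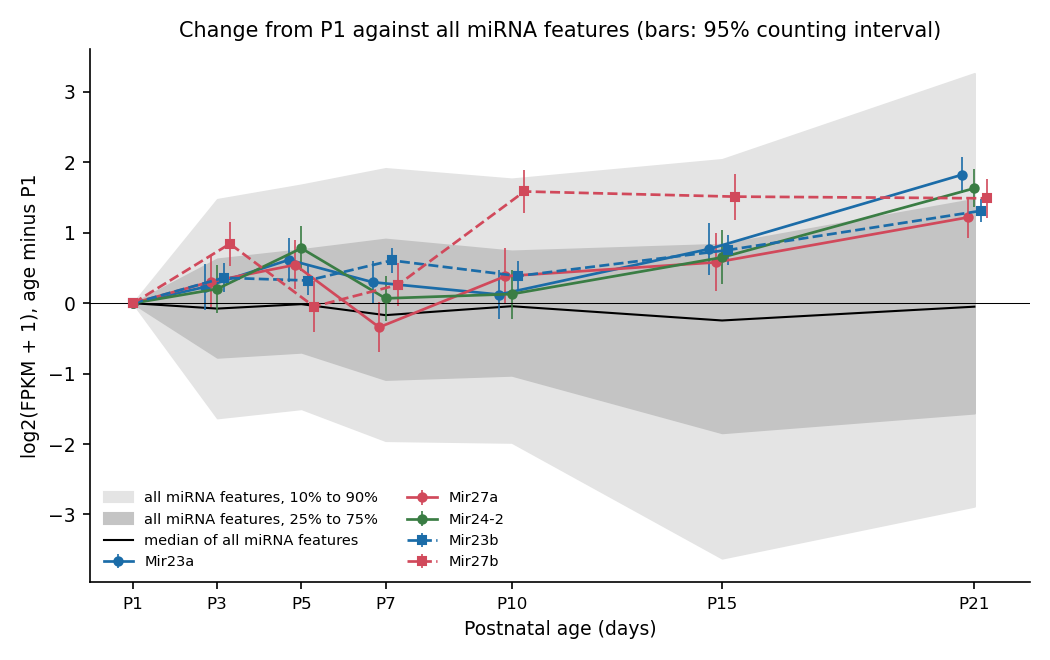
Difference of log2(FPKM + 1) from P1 for the 5 loci against postnatal age, with 95% counting intervals as bars, over bands that hold the middle 80% and the middle 50% of 571 miRNA features. At P21 the loci lay between 1.22 and 1.82 while the median of all miRNA features was -0.049, and at P10 Mir27b stood apart from the other 4 loci at 1.59.

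Summed over its loci, the mir-23 family had 48624 FPKM at P1, 59869 FPKM at P3, 67341 FPKM at P5, 67282 FPKM at P7, 58510.0 FPKM at P10, 82544 FPKM at P15 and 145242 FPKM at P21. The family was lowest at P1 and highest at P21, with a difference of 1.58 (from 1.43 to 1.73). P10 was the lowest age with libraries scaled to the miRNA total and as a share of the alignments, with a difference from P1 of -0.11 and -0.47. Levels at P5 and P7 were alike as deposited, while P7 was above P5 by 0.38 with median-of-ratios and 0.45 with TMM-like scaling. The mir-27 family had 24728 FPKM at P1, 37862 FPKM at P3, 29679 FPKM at P5, 24863 FPKM at P7, 54426 FPKM at P10, 54708 FPKM at P15 and 63852 FPKM at P21. It fell from P5 to P7 by a difference of -0.26 (from -0.48 to -0.035), which turned into 0.13 with median-of-ratios scaling, 0.19 with TMM-like scaling and 0.062 as a share of the alignments. Its difference between P21 and P1 was 1.37 (from 1.17 to 1.57), and most of the rise fell between P7 and P10, with a difference of 1.13 (from 0.93 to 1.34). This rise was 0.72 with libraries scaled to the miRNA total, less than the rise of 0.86 from P1 to P3, and 0.69 with TMM-like scaling. The higher level of mir-27 at P21 than at P10 and P15, 0.23 and 0.22, turned into -0.014 and -0.26 with scaling to the miRNA total. For mir-24, represented by Mir24-2 alone, the difference between P21 and P1 was the 1.63 given for that locus.

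The families differed in abundance. By the mean over the ages, mir-23 had 75630 FPKM and lay between Mir211 (79088 FPKM) and AABR07037925.1 (74613 FPKM) in the order of the miRNA features. Mir-27, with 41445 FPKM, lay between Mir3570 (41771 FPKM) and Mir3597-1 (41406 FPKM). Mir-24, with 13603 FPKM, lay between rno-mir-3543-1 (13628 FPKM) and Mir488 (13562 FPKM). These places set sums over the loci of a family against single features and average over ages with different levels. Mir211, for instance, had 2090 FPKM at P1 and 233594 FPKM at P21. The places also depended on the length scaling, since by mean effective alignments Mir24-2 ranked 107 instead of 133 and Mir27a 119 instead of 115. The mir-23 loci held between 47.7% of the summed FPKM of the 5 loci at P10 and 66.3% at P7. Mir-27 held between 24.5% at P7 and 44.4% at P10, so the ages with the largest share of the one were those with the smallest share of the other.

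The paralogs of each family were compared as the log2 ratio of their FPKM at each age, which asks whether the clusters followed 1 course. For Mir23a over Mir23b this ratio was -0.13 and -0.27 at P1 and P3, rose to 0.16 at P5, was -0.44 and -0.40 at P7 and P10, and reached -0.12 at P15 and 0.38 at P21. Mir23b was the higher locus beyond counting error at P7 (from -0.64 to -0.25) and P10 (from -0.70 to -0.096), and Mir23a at P21 (from 0.26 to 0.49). At the other 4 ages the interval included 0. From P1 to P21 the ratio changed by 0.51 (from 0.21 to 0.82) in favour of Mir23a. A ratio of 2 loci in the same library is not affected by the scaling between libraries.

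The order of these 2 loci within an age depended on the length scaling of the FPKM. At P1 a single alignment amounted to 168 FPKM for Mir23a and 70.7 FPKM for Mir23b, a wider gap than between the covered parts of 60 and 90 bases. Counted as alignments, without this scaling, Mir23a had 0.383 times the alignments of Mir23b at P1 and 0.546 times at P21. Mir23b thus had more alignments at every age, although its FPKM was lower at P5 and P21. Changes of the ratio between ages are the same on both scales.

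For Mir27a over Mir27b, whose covered parts were both 75 bases long, the log2 ratio was -0.16 and -0.69 at P1 and P3, 0.43 at P5, -0.76 at P7, and -1.36, -1.09 and -0.43 at P10, P15 and P21. Mir27b was the higher locus beyond counting error at P3, P7, P10, P15 and P21, Mir27a was the higher one at P5, and at P1 the interval included 0. At P3 the components of the library differed in this respect, since Mir27b was higher in component A (-0.94, from -1.26 to -0.62) and the interval included 0 in component B (0.052, from -0.71 to 0.82). At P5 Mir27a was higher in component B (0.68, from 0.069 to 1.29), and the interval included 0 in component A (0.24, from -0.13 to 0.62). Between P5 and P10 the ratio changed by -1.79 (from -2.27 to -1.32). This was a wider range over the ages than that of the mir-23 pair, 1.79 against 0.82. Between the components of P3 alone the ratio of Mir27a to Mir27b differed by -0.99 (from -1.82 to -0.17), and no such comparison was possible for the mir-23 pair, so the ranges were not compared beyond the spread within a library. The ratio at P21 did not differ from that at P1 beyond counting error (-0.27, from -0.67 to 0.13).

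**Figure D3:**
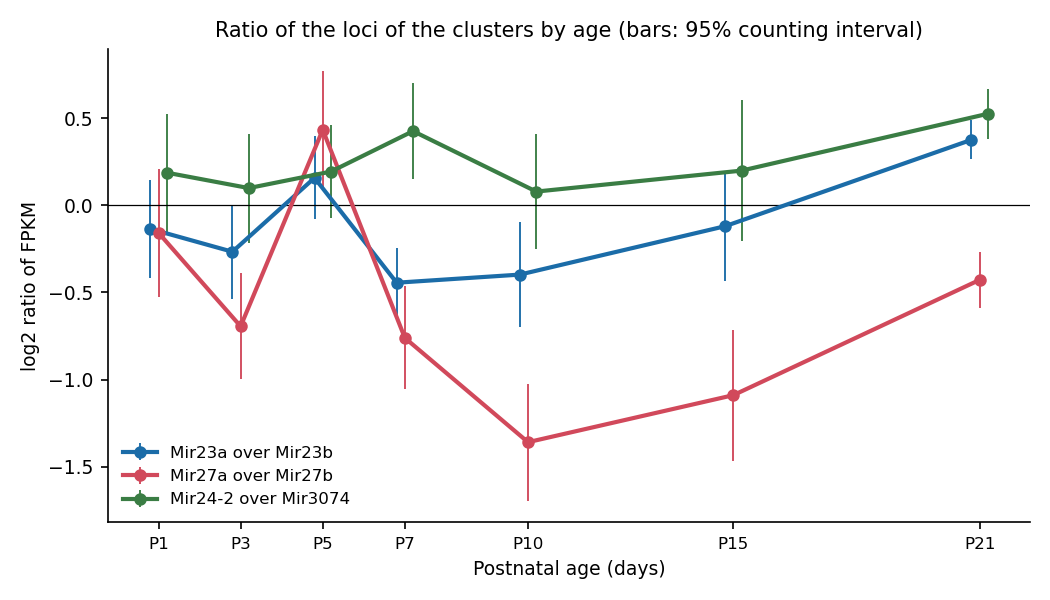
Log2 ratio of FPKM between loci of the clusters against postnatal age, with 95% counting intervals as bars and a line at 0 for equal levels. The ratio of Mir27a to Mir27b ranged from 0.43 at P5 to -1.36 at P10, while that of Mir24-2 to Mir3074 remained between 0.080 and 0.53.

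Within the cluster on chromosome 19, the log2 ratio of Mir23a to Mir24-2 was 1.38 and 1.41 at P1 and P3, 1.21 and 1.61 at P5 and P7, 1.37 and 1.50 at P10 and P15, and 1.57 at P21, a range of 0.39. Mir23a over Mir27a ranged more widely, from 0.73 at P10 to 1.63 at P7. On chromosome 17, Mir23b over Mir27b ranged from -0.24 at P10 to 1.33 at P5, a range of 1.57. The order of loci again depended on the length scaling, since Mir23b had 1.24 times the alignments of Mir27b at P10. Mir23a had between 0.954 (P5) and 1.25 (P7) times the alignments of Mir24-2. The ranges over the ages are the same on both scales. The widest range within a cluster was thus that of Mir23b and Mir27b, for which no comparison between components was possible. For Mir23a over Mir27a the components of the P10 library alone differed by 1.08 (from 0.29 to 1.87), more than the range of 0.90 over the ages. For Mir23a over Mir24-2 they differed by -0.94 (from -1.87 to -0.015), also more than the range over the ages, and for Mir24-2 over Mir27a by 2.03 (from 1.13 to 2.92). These ranges were therefore not shown to exceed the spread within a library.

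Correlations over the 7 ages give the same order as a description. Pearson's r of log2(FPKM + 1) was 0.977 for Mir23a with Mir24-2, 0.902 for Mir27a with Mir24-2 and 0.839 for Mir23a with Mir27a. For Mir23a with Mir23b it was 0.912, for Mir27a with Mir27b 0.588 and for Mir23b with Mir27b 0.618. The points share the depth and scaling of their libraries, and P21 weighed heavily. Without P21, r was 0.914 for Mir23a with Mir24-2 and 0.568 for Mir23a with Mir27a. With libraries scaled to the miRNA total, r was 0.958 for Mir23a with Mir24-2 and 0.302 for Mir27a with Mir27b.

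Mir3074 lies 382 bases beyond Mir27b on the opposite strand of chromosome 17, from 823940 to 824056 in Rnor_6.0 (ENSRNOG00000035568.2). In GRCr8 the hairpin of Mir24-1 lies within that of Mir3074 on the other strand, and the reverse complement of the Mir3074 hairpin contained the whole Mir24-1 hairpin of 68 bases, including miR-24-3p. The mature sequence of Mir3074 and the 5′ arm of Mir24-1 are shown because 20 bases of the one are complementary to the other.
rno-miR-3074 (Mir3074): gAUAUCAGcucaguaggcaccg
rno-miR-24-1-5p (Mir24-1): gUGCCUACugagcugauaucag
The sources used here do not state that the counting used the strand, so reads of Mir3074 and of Mir24-1 cannot be told apart in the value of Mir3074. Without strand, reads of miR-24-3p that fit both Mir24-2 and Mir3074 cannot be told apart either.

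Mir3074 had 7821 FPKM at P1, 9574 FPKM at P3, 13379 FPKM at P5, 6954 FPKM at P7, 9227 FPKM at P10, 12180 FPKM at P15 and 19187 FPKM at P21. Like Mir24-2, it had a higher level at P5 than at P3 and P7 and its highest level at P21. The log2 ratio of Mir24-2 to Mir3074 was 0.19 and 0.10 at P1 and P3, 0.19 and 0.43 at P5 and P7, 0.080 and 0.20 at P10 and P15, and 0.53 at P21. The interval included 0 at all ages but P7 (from 0.15 to 0.70) and P21 (from 0.38 to 0.67). Counted as alignments, Mir24-2 had 129 and Mir3074 had 151 at P1. Pearson's r over the 7 ages was 0.964 for Mir24-2 with Mir3074, 0.969 for Mir27a with Mir3074 and 0.435 for Mir27b with Mir3074. In its course over the ages, Mir3074 was thus closer to loci on chromosome 19 than to Mir27b, its neighbour.

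At 5 ages the 2 components of a library could be looked at separately, which gives a view of technical spread that the deposited value hides. A value was split into whole numbers of alignments of each component where only 1 split gave the deposited value, which held for 17 of the 25 values of the 5 loci at these ages. None of the values of Mir23b had a unique split. For Mir23a, component A gave 35945 FPKM at P3, 40415 FPKM at P5, 15747 FPKM at P7, 29942 FPKM at P10 and 27998 FPKM at P15. Component B gave 18422 FPKM at P3, 30627 FPKM at P5, 41267 FPKM at P7, 20564 FPKM at P10 and 51136 FPKM at P15. The component with the higher level was A at P3, P5 and P10 and B at P7 and P15.

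At each of these ages, most miRNA features with a unique split and at least 20 alignments were higher in the same component as Mir23a. They were higher in A for 86.6% and 83.2% at P3 and P5, in B for 91.2% at P7, in A for 69.2% at P10 and in B for 73.1% at P15. Their median log2 ratio of A to B was 1.41 and 0.77 at P3 and P5, -0.98 at P7, 0.44 at P10 and -0.52 at P15. Of the 17 values, which came from 4 loci, 13 had a gap between the components beyond counting error, and in 7 the gap was at least 2-fold, beside 51.6% and 46.9% of the 1078 such values of miRNA features. After the median of the miRNA features was subtracted, 5 were beyond counting error and 1 was at least 2-fold, beside 28.0% and 25.3%. The spread between components of 1 library was therefore wider than the counting intervals, and less of it was left after the median was subtracted. The components of a library count as 1 replicate.

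The widest gap was that of Mir27b at P3, with 38048 FPKM in component A and 8754 FPKM in component B. The intermediate level of Mir27b at P3 thus averaged a component near the later levels of this locus and a component below its level at P1. Much of this gap was shared by the library, since the miRNA median at P3 was 1.41. After the median was subtracted, the gap of Mir27b was 0.71 (from 0.14 to 1.29), less than 2-fold. Mir24-2 at P10 had 14369 FPKM in component A and 5136 FPKM in component B. This was the value that remained more than 2-fold apart after the median was subtracted, at 1.04 (from 0.32 to 1.76). Mir27a at P10 differed in the opposite direction, with 12423 FPKM in A and 18094 FPKM in B.

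The highest levels at P21 can be set against these components. For Mir23a none of the 10 component levels from P3 to P15 exceeded the P21 level of 82062 FPKM, and the highest was 51136 FPKM. For Mir27a none of 10 exceeded 27230 FPKM, with a highest value of 21213 FPKM. For Mir24-2 none of the 8 component levels that could be recovered exceeded 27643 FPKM, with a highest value of 17600.0 FPKM. For Mir27b, in contrast, 2 of 6 component levels exceeded that of P21, component A at P3 and component B at P15. The 4 components of P21 could not be separated, and P1 had 1 component.

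The fall of Mir27a and Mir24-2 between P5 and P7 can be set against the components of P7. Component B of P7 gave 12417 FPKM for Mir27a and 12487 FPKM for Mir24-2, and component A gave 6038 FPKM and 6213 FPKM. For Mir27a the levels at P5 were 17865 FPKM in A and 16253 FPKM in B, both above both levels at P7. For Mir24-2 the value at P5, 15312 FPKM, had no unique split.

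**Figure D4:**
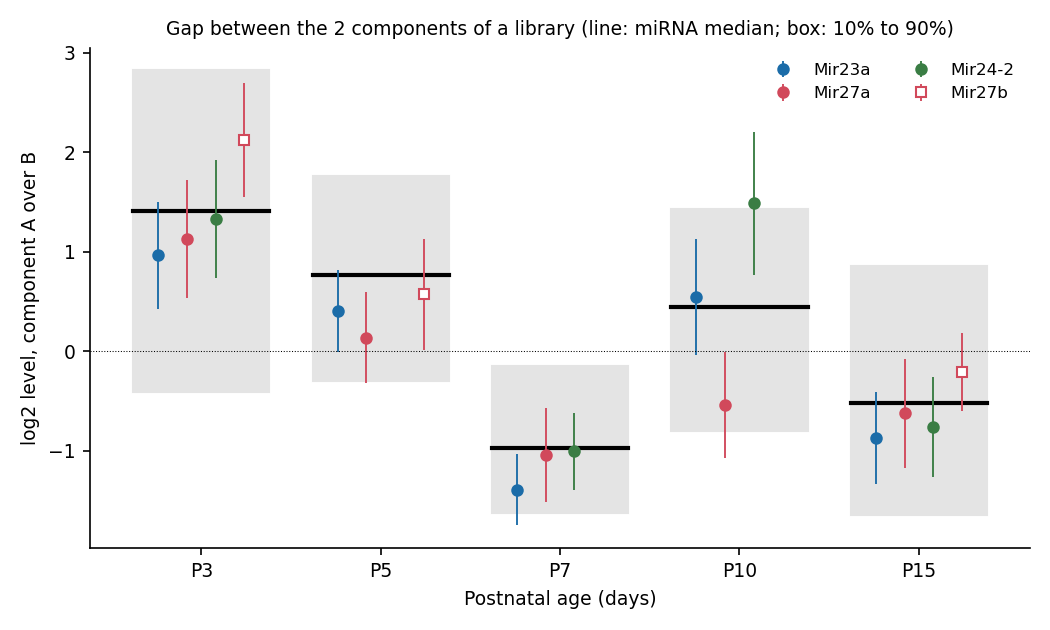
Log2 ratio of the level in component A to that in component B for Mir23a, Mir27a, Mir24-2 and Mir27b at the 5 ages with 2 components, with 95% counting intervals as bars. Black lines give the median of the miRNA features, 1.41 at P3 and -0.98 at P7, and boxes hold the middle 80% of them, so most points of the 4 loci followed the median of their library.

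Markers of vessel cells were compared with the clusters, since miR-23 and miR-27 are known from endothelium. The endothelial marker Mir126a had 42554 FPKM at P1, 14666 FPKM at P3, 14922 FPKM at P5, 7031 FPKM at P7, 24362 FPKM at P10, 40166 FPKM at P15 and 33548 FPKM at P21. It was lowest at P7, and at P21 it was lower than at P1 by a difference of -0.34 (from -0.43 to -0.26), while all 5 loci of the clusters were higher. This difference was -0.97 with libraries scaled to the miRNA total and -1.34 as a share of the alignments. It was smaller with median-of-ratios scaling (-0.27) and TMM-like scaling (-0.21). Of the mural cell markers, Mir145 had its lowest level at P7, 12733 FPKM, and its highest at P21, 90032 FPKM, with a difference between P21 and P1 of 1.67 (from 1.48 to 1.85), or 1.04 with libraries scaled to the miRNA total and 0.66 as a share of the alignments. Mir143 had 1747 FPKM at P7 and 8595 FPKM at P21, a difference of 0.42 (from 0.20 to 0.65) from P1 that was -0.20 and -0.58 in these respective cases. All 3 vessel cell markers were lowest at P7, an age at which Mir27a and 21.0% of all miRNA features were lowest too. In contrast, Mir23b at P7 was above its levels at P5 and P10. The part of vessel cell numbers in the levels of the clusters was not tested.

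A wider list of miRNAs known for roles in vessels gave 18 features for 16 of its 22 names. Of these 18 features, 6 were at least 2-fold higher at P21 than at P1, 8 were at least 2-fold lower and 4 were between, beside 31.5% higher and 32.9% lower among all miRNA features. The median difference was -0.61. The 6 higher ones were Mir145, Mir221, Mir222, Mir132, Mir130a and Mir150. Mir221 and Mir222, which act on vessel growth through the Kit receptor, differed by 2.74 (from 1.86 to 3.62) and 2.28 (from 1.68 to 2.89). Mir130a, which represses antiangiogenic homeobox genes, had 50652 FPKM at P1 and 122694 FPKM at P21. The lower ones included the loci of the mir-17/92 cluster, known from dividing cells, with Mir20a falling from 970552 FPKM to 57224 FPKM and Mir18a from 116105 FPKM to 7253 FPKM. The other lower ones were Mir17, Mir19b1, Mir19b2, Mir92a1, Mir296 and Mir184. Mir19b1 and Mir19b2 are loci of 1 miRNA with nearly equal mean effective alignments (7304 and 7302), so features are not separate miRNAs. Most of the summed level at P1 came from Mir20a, Mir19b2 (920699 FPKM) and Mir19b1 (708241 FPKM). The most abundant feature of the list was Mir19b2, and the summed level of the list was 2985732 FPKM at P1, 2364181 FPKM at P3, 2264648 FPKM at P5, 1100463 FPKM at P7, 1499715 FPKM at P10, 981354 FPKM at P15 and 968151 FPKM at P21.

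Markers of other cells that a retina sample can hold also changed with age. The retinal list of photoreceptor and neuron miRNAs had 7 features, of which 5 were at least 2-fold higher at P21 than at P1 and none lower, beside 31.5% and 32.9% of all miRNA features. Of these 5, 3 were the loci Mir124-1, Mir124-2 and Mir124-3 of 1 miRNA, with nearly equal mean effective alignments (35530, 35760 and 35400), so the list has fewer separate miRNAs than features. The summed level was 1168460 FPKM at P1, 3306745 FPKM at P3, 6319178 FPKM at P5, 5923626 FPKM at P7, 8492298 FPKM at P10, 9308930 FPKM at P15 and 12413482 FPKM at P21. Its most abundant feature was Mir124-1. Both pigment epithelium markers were at least 2-fold higher at P21 as deposited, Mir204 by 1.55 (from 1.50 to 1.60) and Mir211 by 6.80 (from 6.42 to 7.19). Scaling to the miRNA total raises P1 against P21 by 0.63, which leaves Mir204 less than 2-fold higher. The summed level of both markers was 87709 FPKM at P1, 168716 FPKM at P3, 154026 FPKM at P5, 141125 FPKM at P7, 287111 FPKM at P10, 455449 FPKM at P15 and 483914 FPKM at P21. Mir204 was the more abundant marker at every age. Mir211 rose from 2090 FPKM at P1 to 233594 FPKM at P21, near the 250320 FPKM of Mir204 at that age. The summed levels of both lists were higher at P21 than at P1, as were those of both clusters, and the part of these cells in the levels of the clusters was not tested. Whether Mir204 and Mir211 came from pigment epithelium alone in these whole retinas was not tested either.

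The 3 blood features summed to 18257 FPKM at P1, 4610 FPKM at P3, 9992 FPKM at P5, 4982 FPKM at P7, 14434 FPKM at P10, 8062 FPKM at P15 and 14017 FPKM at P21, with Mir451a, an erythroid miRNA, as the most abundant one. None was at least 2-fold higher at P21 than at P1 and 1, Mir144, was at least 2-fold lower, beside the 31.5% and 32.9% given above. The 3 skeletal muscle features summed to 7439 FPKM at P1, 165251 FPKM at P3, 100176 FPKM at P5, 4840 FPKM at P7, 11665 FPKM at P10, 7905 FPKM at P15 and 5702 FPKM at P21. Their levels at P3 and P5 stood far above those of the other ages and, in FPKM, came mainly from Mir206, a miRNA of skeletal muscle. By mean effective alignments over the ages, Mir206 was the lowest of the 3, with 19.9 beside 27.4 for Mir133b and 28.6 for Mir1b. Its part of the sum thus depended on the length scaling and rested on few alignments. Mir23a, Mir27a and Mir24-2 were higher at P5, and Mir27b at P3, than at both neighbouring ages, within counting error for Mir27a at P5 against P3, and the part of muscle RNA in these levels was not tested. None of the marker features was at 0 at any age.

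**Figure D5:**
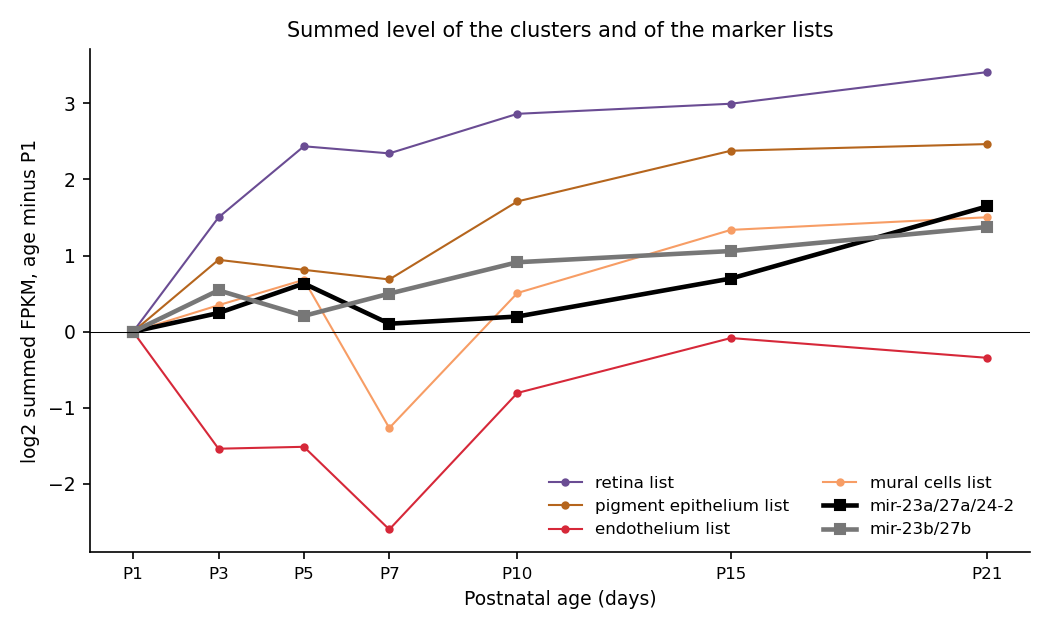
Log2 of the summed FPKM relative to P1 against postnatal age for the 2 clusters (squares) and for the marker lists of retina, pigment epithelium, endothelium and mural cells (circles). At P21 the clusters stood at 1.65 (mir-23a/27a/24-2) and 1.38 (mir-23b/27b), the endothelial marker was below its P1 level, and the vessel cell markers had their low point at P7.

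The summed level of the cluster on chromosome 19 was 43786 FPKM at P1, 51905 FPKM at P3, 67892 FPKM at P5, 47084 FPKM at P7, 50264 FPKM at P10, 71043 FPKM at P15 and 136934 FPKM at P21. That of Mir23b and Mir27b was 38480.0 FPKM at P1, 56086 FPKM at P3, 44440 FPKM at P5, 54412 FPKM at P7, 72424 FPKM at P10, 80202 FPKM at P15 and 99802 FPKM at P21. The first had a local high point at P5 and rose most between P15 and P21, by 0.95 (from 0.76 to 1.14). Its largest rise was that from P10 to P15 instead with 3 scalings, at 0.74 (miRNA total), 0.75 (median-of-ratios) and 0.94 (TMM-like), against 0.46, 0.70 and 0.60 from P15 to P21, but not as a share of the alignments (0.54 against 0.64). The fall after P5, -0.53 as deposited, was -0.14 with median-of-ratios and -0.080 with TMM-like scaling. The second had a local low point at P5 and higher levels at each later age. Its differences between P10 and P7, 0.41, and between P21 and P15, 0.32, were not stable against scaling, since the first was -0.025 with TMM-like scaling and the second -0.17 with libraries scaled to the miRNA total. The share of the summed FPKM of the 5 loci that came from chromosome 19 was 60.4% at P5, 41.0% at P10 and 57.8% at P21. This share also depended on the length scaling. Effective alignments at P21 were 980 for Mir23a, 528 for Mir27a and 802 for Mir24-2, against 1793 for Mir23b and 710 for Mir27b. Without the length scaling the larger part at P21 thus came from chromosome 17. As a share of the alignments, the larger part stayed with chromosome 19 at P5 and with chromosome 17 at P10.

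Among the 319 other miRNA features with a mean of at least 20 effective alignments, those whose course over the 7 ages was most like the summed level of the cluster on chromosome 19 were Mir551b (r = 0.963), AABR07002353.1 (r = 0.960), AABR07032057.1 (r = 0.958), Mir3074 (r = 0.950) and AABR07009786.1 (r = 0.937). Their likeness rested in part on P21, the highest age of the cluster. Without P21, r was 0.814 for Mir551b and 0.729 for AABR07009786.1, and 0.930 for Mir3074. The level of Mir551b was 5381 FPKM at P1 and 10125 FPKM at P21. With libraries scaled to the miRNA total, r was 0.994 for AABR07032057.1 and 0.899 for Mir3074, and the 5 features took places 8, 2, 1, 7 and 3.

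For the summed level of Mir23b and Mir27b the most similar courses were those of Mir187 (r = 0.964), Mir211 (r = 0.956), Mir3556b (r = 0.946), rno-mir-3556b-1 (r = 0.938) and Mir129-2 (r = 0.930). Mir187 rose from 571 FPKM at P1 to 9852 FPKM at P21 and Mir129-2 from 2695 FPKM to 102536 FPKM, far larger changes than those of the cluster. Mir211 is also a marker of the pigment epithelium list. With libraries scaled to the miRNA total, r was between 0.658 and 0.862 for these 5 features, and they took places 3, 10, 22, 29 and 28, so 4 of the 5 left the upper 5.

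The nearest other miRNA features of the chromosome 19 cluster were Mir181c and Mir181d, on the reverse strand at distances of 28266 and 28449 bases, named here after their values were seen. Mir181c had 18995 FPKM at P1, 63884 FPKM at P7 and 47809 FPKM at P21, so that P7, the lowest age of Mir27a, was its highest. Mir181d had 3335 FPKM at P1, 4372 FPKM at P7 and 1824 FPKM at P21. At P21 Mir181c was above P1 by 1.33, and Mir181d was below it, with a difference of -0.87.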

How the data were processed

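Small RNA of Wistar WU rat retina was measured at 7 ages, with 1 value per feature and age from a pool of 3 retinas. The Ion Torrent reads were trimmed by the authors and aligned with noncoding RNAs of Ensembl, after which Cufflinks, Cuffmerge and Cuffdiff gave the levels. The submitters' processing notes name Cuffdiff 2.2.1.3 and the build Rnor_6.0. They deposited FPKM values of the features, which were used here, and fold changes, p-values and q-values of all 21 pairs of ages, which were not used. Counts had been allowed for in the design, but with FPKM no count test was run. Levels were compared as log2(FPKM + 1), with a pseudocount of 1, and families as the sum over loci. Alignments were recovered from the steps between low values for 568 of 571 miRNA features with a well determined length unit. A value was divided between 2 components only where a single split into whole numbers gave the deposited value within its rounding. Where components were not separated, equal signal from each was assumed for the effective number of alignments. On simulated libraries of the same 5491 features, which were built from such steps, the recovery found the true number of steps for 7 of 7 libraries. In these, 2235 of 2235 unique splits were right. Whether the unique splits of the deposited values were right was not tested. Intervals are normal approximations on the log scale at the 95% level. A feature was called changed past 2-fold. Alternatives were scaling to the miRNA total, median-of-ratios and TMM-like scaling (30% of the ratios and 5% of the levels trimmed at each end), a pseudocount of 0.1 or 10, families as single loci or as the mean of their loci, the mean over the ages in place of the reference P21, filters on low values and leaving out each age. Levels as a share of the estimated miRNA alignments, a filter at 20 effective alignments, the separate components and the comparison with Mir3074 were chosen after seeing the data. The features named are the loci themselves, miRNAs with the same seed, lists for vessels and cell types, the 5 features most like each cluster among those with a mean of at least 20 effective alignments, and the features next to each family in abundance. The loci and lists were chosen with earlier results of these data known. Sequences and gene neighbours come from RefSeq tables of GRCr8, matched by symbol. The software was Python 3.11.15, numpy 2.4.6, scipy 1.17.1, pandas 2.3.3 and, for the figures, matplotlib 3.10.9.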

Additional observations from a re-analysis of the deposited data

How the results depend on the processing

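With libraries scaled to the miRNA total, the difference between P21 and P1 was 0.95 for mir-23, 0.74 for mir-27 and 1.01 for mir-24, and 2 loci instead of 5 were at least 2-fold higher at P21. As a share of the estimated miRNA alignments, chosen after seeing the data, these differences were 0.47, 0.37 and 0.63, and 0 loci were at least 2-fold higher. For mir-23, the single loci gave 1.82 (Mir23a) and 1.31 (Mir23b). The other 26 alternatives of these results were within the counting interval of the value reported, or within 1.5 times the count. No direction between P21 and P1 was changed for the families.

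Among the other differences tested, which included every step between neighbouring ages, 11 that were beyond counting error changed sign, under 23 alternatives. With libraries scaled to the miRNA total, P21 was below P3 for Mir27b (-0.22) and mir-27 (-0.11), below P10 (-0.014) and P15 (-0.26) for mir-27, below P15 for Mir23b and Mir27b together (-0.17) and below P1 for Mir143 (-0.20). With TMM-like scaling, P21 was below P15 for mir-27 (-0.13) and for Mir23b and Mir27b together (-0.035), P10 below P7 for the latter (-0.025), and P7 above P5 for Mir23a (0.13) and mir-27 (0.19). With median-of-ratios scaling, P21 was below P15 for mir-27 (-0.018), and P7 above P5 for Mir23a (0.066) and mir-27 (0.13). As a share of the alignments, P21 was below P7 for Mir23b (-0.15), below P3 for Mir27b (-0.15) and mir-27 (-0.044), below P15 for mir-27 (-0.056) and below P1 for Mir143 (-0.58), P7 was above P5 for Mir23a (0.00037) and mir-27 (0.062), P15 below P3 for Mir24-2 (-0.072) and P10 below P7 for Mir23b and Mir27b together (-0.36). The cause was not tested, but the 3 scalings of FPKM shift all miRNAs of a library alike, while the share of the alignments also changes the weight of each locus in a sum. A further 198 alternatives of values for single loci, families, clusters, markers and all miRNA features were outside the interval of the value reported or gave another lowest or highest age, 65 of them with scaling to the miRNA total and 59 as a share of the alignments, and 383 were not. Of the 198, 186 were differences between ages, 117 of them smaller and 69 larger in size than as deposited. Of 200 alternatives for 25 correlations over the ages, 45 moved r by more than 0.1, a limit chosen after seeing the data, and the lowest r was -0.0033 for Mir24-2 with Mir27b (0.38 as deposited) with scaling to the miRNA total. Against the mean over the 7 ages, P21 was above it for all 5 loci, by 0.68 for Mir27b to 1.27 for Mir23a, beside 54.6% of all miRNA features. Depth limits the comparisons among P1 to P15, where a locus had between 81.0 (Mir27a at P15) and 927 (Mir23b at P7) effective alignments. Variation between animals is not covered by any interval.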
